A study of Mus musculus with 3 samples.

Results

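The genes described here are the cytokine genes Il9 and Il10 and the receptor genes Il9r, Il10ra and Il10rb, 5 genes chosen by name and all found among the 19938 genes measured. Each was measured by 1 probe that carries no other gene symbol. The 3 samples were CD4 T cells of OT-II mice, a line whose transgenic T cell receptor (B6.Cg-Tg(TcraTcrb)425Cbn/J) recognises an ovalbumin peptide, sorted from spleen as naive cells (CD4+CD25-CD62LhighCD44low). All 3 were activated by that peptide on splenic antigen-presenting cells that had been depleted of T cells and came from Il23a-/- mice, so no group had IL-23 made by the presenting cells. Th0 cells received no cytokine, Th22 cells received IL-6, and Th17 cells received IL-6 with TGFβ. RNA was taken after 60 hours from cells purified with magnetic beads, and each condition had 1 Affymetrix array. The study asked what separates the Th22 from the Th17 program. No difference given here therefore has a replicate check, no test was run, and the labels do not say how many mice went into a sample.

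IL-9 is a growth and survival cytokine for T cells and mast cells. It binds the IL-9 receptor chain encoded by Il9r, which pairs with the common gamma chain and signals through JAK1, JAK3 and STAT factors. IL-10 restrains inflammation. It binds the chain encoded by Il10ra, which is specific to it, and then recruits the chain encoded by Il10rb, which the receptors for IL-22 and the lambda interferons also use, and it signals through JAK1, TYK2 and STAT3. TGFβ is known to favour Il9 when given with IL-4, and to favour Il10 when given with IL-6.

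Promoter sequences were read for Il9 and Il9r, the only ones of the 5 genes whose promoter windows were at hand. They are RefSeq sequences of build GRCm38.p6, both on the minus strand, and each runs from 250 bases before the start site to 50 bases from it on. The Il9 window is chr13:56482208-56482507 and the Il9r window is chr11:32200230-32200529. Capitals mark matches, on either strand, to the motifs named after them.
Il9: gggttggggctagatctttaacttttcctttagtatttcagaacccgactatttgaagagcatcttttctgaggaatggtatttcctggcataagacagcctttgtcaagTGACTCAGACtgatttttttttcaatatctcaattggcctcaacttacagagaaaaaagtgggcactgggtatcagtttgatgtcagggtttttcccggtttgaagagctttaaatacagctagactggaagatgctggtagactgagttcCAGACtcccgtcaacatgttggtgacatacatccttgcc
Il9r: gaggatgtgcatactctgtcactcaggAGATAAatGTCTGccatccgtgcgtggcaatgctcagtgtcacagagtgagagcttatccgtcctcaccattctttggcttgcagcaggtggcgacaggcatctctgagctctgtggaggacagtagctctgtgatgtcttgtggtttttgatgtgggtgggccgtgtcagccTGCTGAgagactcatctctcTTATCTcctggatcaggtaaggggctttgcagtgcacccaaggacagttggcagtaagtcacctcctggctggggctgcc
The Il9 window held 1 match to the AP-1 motif TGANTCA, starting at base -140 from the start site, and 2 matches to the Smad motif CAGAC, of which 1 overlaps the AP-1 match by its first 2 bases. The Il9r window held 1 match to the Maf recognition core TGCTGA, starting at base -50, 1 to CAGAC and 2 to the Gata motif AGATAA. Among 32851 promoter windows of the same length, 7.81% held the AP-1 motif, 49.6% CAGAC, 19.5% TGCTGA and 11.2% AGATAA. Neither window held the STAT motif TTCNNNGAA (8.3% of windows) or the IRF motif of a pair of GAAA runs spaced by NN (3.44%). These are matches of letters in a window and not measured binding.

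Values are log2 differences of a probe from its own median over the 3 arrays, so for a gene with 1 probe, as all 5 are, the array in the middle stands at 0, and expression levels are not known. Base 2 was assumed, since the log base is not given in the sources used here, and every fold rests on that assumption. Folds compare the arrays as mixtures of cells, in which fewer cells expressing a gene and less RNA per cell cannot be told apart. The measure of error at hand is the disagreement between separate probes of 1 gene. Over 999 such genes 95% of the disagreements lay within 0.36 log2 where Th17 was set against Th22, 0.30 where Th22 was set against Th0 and 0.39 where Th17 was. How much cultures vary is not part of that measure. The 999 genes include genes that did not vary between arrays, so the ranges can be too narrow for genes that do. The 2 probes of Irf1, for example, lay 1.63 log2 apart for Th17 against Th0. A difference just outside a range is therefore not shown to exceed error. The comparisons share arrays, so a low value on 1 array enters each comparison that uses it.

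Il9 was low in Th22 and within 2-fold of its Th0 value in Th17. It stood at 0 in Th0, -3.40 in Th22 and 0.50 in Th17. The value of -3.40 was the lowest of all 28853 probes on the Th22 array. Il9 was thus 10.5-fold lower in Th22 than in Th0, ranking 2 from the lowest of all genes in that comparison, and 14.9-fold higher in Th17 than in Th22, ranking 6 from the highest. Between Th17 and Th0 it was 1.42-fold higher in Th17, a difference of 0.50 log2 that exceeds the 0.39 holding most probe disagreements but stays under 2-fold. That difference came to 0.38 log2 after quantile normalization and 0.34 after scaling to equal SD. The probe disagreement was not measured again on those scales. Since a difference just outside the range is not shown to exceed error, the order of Th17 and Th0 is not resolved for Il9. In that comparison 7.52% of all genes were at least as far apart.

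Il10 was high in Th17 alone. It stood at 0 in Th0, -0.67 in Th22 and 3.73 in Th17. That made it 13.2-fold higher in Th17 than in Th0, ranking 15 from the highest of all genes, and 21.1-fold higher than in Th22, ranking 4 from the highest. Th22 was 1.59-fold below Th0. This lay outside the probe disagreement of 0.30 log2 and under 2-fold, with 1.86% of all genes at least as far apart. It passed 2-fold once the spread of the arrays was made equal, with a difference of -1.74 log2 after quantile normalization and -1.02 after scaling to equal SD. As deposited, both cytokine genes had the order Th17, Th0, Th22, though for Il9 the order of Th17 and Th0 is not resolved. The wide step lay between Th0 and Th22 for Il9 and between Th17 and Th0 for Il10.

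Il10ra, the gene of the ligand-binding chain, was low in Th17, where Il10 was high. It stood at 0.23 in Th0, 0 in Th22 and -2.82 in Th17. It was lower in Th17, by 8.32-fold against Th0 and by 7.08-fold against Th22, ranking 32 and 28 from the lowest of all genes. Th0 and Th22 differed by 0.23 log2, inside the probe disagreement, so their order is not resolved. On the same Th17 array the ligand gene was thus at its highest and the gene of its specific receptor chain at its lowest.

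Il10rb and Il9r were nearly level. Il10rb stood at 0 in Th0, -0.06 in Th22 and 0.01 in Th17, a range of 0.07 log2 or 1.05-fold. The chain shared by IL-10 and IL-22 receptors thus varied by less than the probe disagreement in every comparison. Il9r stood at 0.23 in Th0, -0.04 in Th22 and 0 in Th17, a range of 0.27 log2 or 1.21-fold. Its value was highest in Th0, but the differences of 0.27 and 0.23 log2 were again inside the probe disagreement. Since levels are not known, a gene that is level on these arrays cannot be told from a gene that was not detected.

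**Figure D1:**
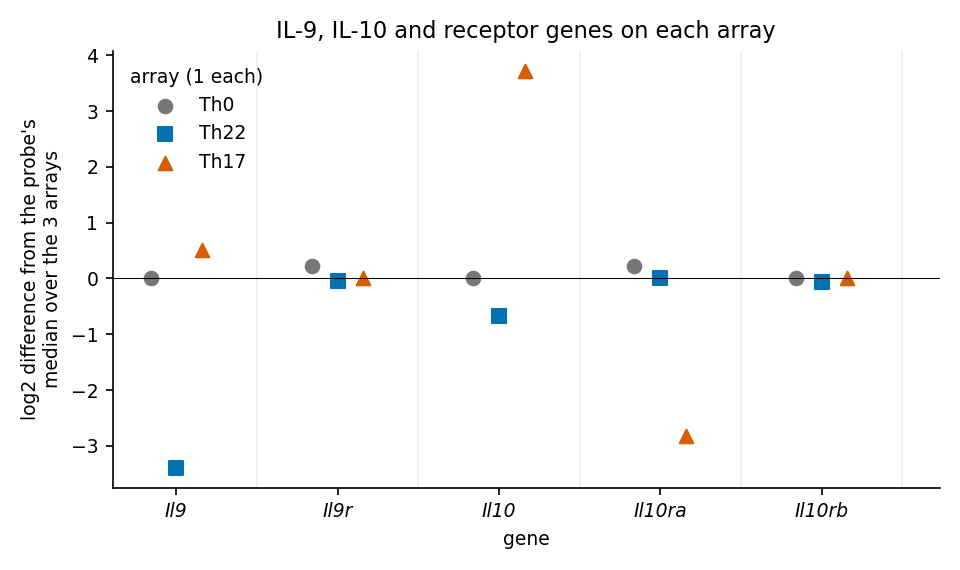
Value of each of the 5 genes on the Th0, Th22 and Th17 arrays (1 array each), as the log2 difference from the probe's median over the 3 arrays, with points set apart sideways for legibility. Il9 is low in Th22 (-3.40), Il10 is high in Th17 (3.73), Il10ra is low in Th17 (-2.82), and Il9r and Il10rb stay within 0.27 and 0.07 log2.

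Counted at 2-fold, 3 of the 5 genes differed between Th17 and Th22, with Il9 and Il10 higher in Th17 and Il10ra lower, where 2.61% of all genes differed in either direction, 1.1% being higher in Th17 and 1.5% lower. Between Th22 and Th0 only Il9 did, lower in Th22, on a background of 0.808% (0.547% higher and 0.261% lower). Between Th17 and Th0 Il10 and Il10ra did, 1 each way, on a background of 3.03% (1.47% higher and 1.56% lower). The median difference of the 5 genes was 0.07, -0.27 and 0.01 log2 in the same order, and that of all genes was 0. The 5 genes were proposed with results of these arrays known, so their counts describe them and do not test them. All genes past 2-fold between Th22 and Th0 were 109 higher and 52 lower, and 150 higher and 158 lower after quantile normalization.

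In the values as deposited, few genes had the pattern of Il9. Likeness was measured as the distance between genes over how far Th22 and Th17 each lay from Th0, a pair of values that rests on 3 arrays. No gene lay within 1 log2 of Il9. The nearest was Ccr8, which encodes a chemokine receptor of Th2 and regulatory T cells, at 1.16 log2, with values of 0.33 in Th0, -2.26 in Th22 and 0 in Th17. The next were the growth factor gene Fgf2 at 2.28, Cd96 at 2.40, the interferon-inducible GTPase gene Irgm1 at 2.41 and the transcription factor gene Irf8 at 2.50. In those values, only Il9, Ccr8 and Fgf2 of all genes lay at least 2-fold below both other arrays in Th22. In Th17, 201 genes lay at least 2-fold above both others and 206 as far below. The Th22 array had the narrowest spread, and these counts were not repeated after rescaling. After quantile normalization Il10 joined the Th22 pattern, at 4.80 log2 for Th17 against Th22 and -1.74 for Th22 against Th0. So did Foxp1 (1.77 and -1.52), Notch2 (1.05 and -1.52) and Tgfbr1 (2.87 and -1.33), so the rarity depends on the scaling.

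In the values as deposited, Il10 and Il10ra lay in more populated regions. Within 1 log2 of Il10 there were 7 genes. The 5 nearest were Foxp3, the regulatory T cell factor gene (0.56 log2 away), the glycoprotein gene Pdpn (0.69), the kinase gene Sgk1 (0.76), the chemokine gene Ccl20 (0.80) and the protein C receptor gene Procr (0.97). Their differences of Th22 from Th0 lay between -0.15 and 0.23 log2, where that of Il10 was -0.67. After quantile normalization that of Il10 came to -1.74. The distances were not measured again after rescaling, so the neighbours named for Il10 and Il10ra hold for the deposited scale alone. Within 1 log2 of Il10ra there were 50 genes. The nearest were Itih5 (0.15), the RNA sensor gene Ifih1 (0.17), Ms4a4b (0.23), the cytokine gene Il2 (0.25) and the T cell adaptor gene Trat1 (0.30). Il2 stood at 0.21 in Th0, 0 in Th22 and -3.10 in Th17, and Trat1 at 0.39, 0 and -2.93.

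**Figure D2:**
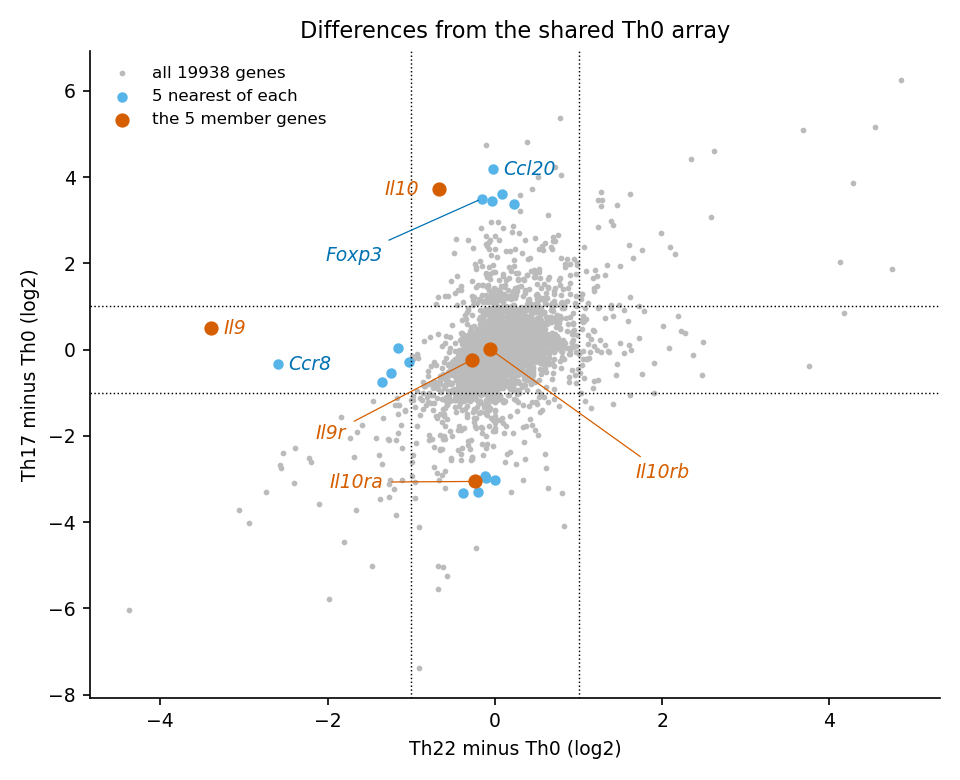
Each of 19938 genes by its difference of Th22 from Th0 (horizontal, log2) and of Th17 from Th0 (vertical, log2), with the 5 genes in orange, the 5 nearest genes of each of Il9, Il10 and Il10ra in blue, and dotted lines at 2-fold. Both axes share the Th0 array, so the slope of the cloud is not read. Il9 and Ccr8 lie apart at the left (-3.40 and -2.59), Il10 at the top (3.73) and Il10ra at the bottom (-3.06).

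Most receptor genes of the same families were level, as most genes on these arrays were. Over all genes, 2.61% passed 2-fold between Th17 and Th22, 0.808% between Th22 and Th0 and 3.03% between Th17 and Th0. These shares stand beside each list count from here on, and a list with few genes past 2-fold is not set apart by that. Of 11 type II cytokine receptor genes, the family that binds IL-10, IL-20, IL-22 and the interferons, only Il10ra passed 2-fold between Th17 and Th22 and between Th17 and Th0, and none did between Th22 and Th0. Il20ra and Ifnlr1 were equal on all 3 arrays. Of 7 receptor genes that pair with the common gamma chain, Il9r among them, only Il15ra, the IL-15 binding chain, passed 2-fold. It was 2.77-fold lower in Th17 than in Th22, a difference that fell to 0.91 log2 in size after quantile normalization, and 4.18-fold lower than in Th0. Both receptor lists were drawn up after the values of the 5 genes were known.

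In the common gamma chain family of cytokines and receptors, with 13 measured genes, Il2 was 8.58-fold lower in Th17 than in Th22 and 9.91-fold lower than in Th0. Il4 lay below its Th0 value by 4.60-fold in Th22 and 6.13-fold in Th17, and Il21 lay above its own by 4.46-fold and 4.61-fold. The family's median difference was 0 for Th17 against each other array and -0.0012 log2 for Th22 against Th0. Of 9 relatives of Il10 and their receptors with probes of a single symbol, only Il24 passed 2-fold, at 0.81 in Th0 against -0.30 in Th17, or 2.16-fold. Il19, Il20, Il20ra and Ifnlr1 were equal on all arrays. Il22 is not among the 9, because its probes also carry Iltifb, yet those probes passed 2-fold in every comparison. They were 28.8-fold and 28.7-fold higher in Th22 than in Th0. Th17 was 8.40-fold and 8.21-fold below Th22, and 3.43-fold and 3.49-fold above Th0.

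Other T helper cytokines were set beside Il9 and Il10 in a list of 25 measured genes. Between Th22 and Th0, Ifng, Il13, Csf2, Il4 and Il5 (3.14-fold) were lower in Th22 together with Il9, and Il17f, Il17a, Il21 and Tgfb3 were higher. The Th2 cytokine genes were no higher in Th17 than in Th22, with differences of -0.41 log2 for Il4, -0.25 for Il5 and -1.09 for Il13, where Il9 had 3.90. Against Th22, Ccl20, Il17a and Il17f were higher in Th17 together with Il10, and Il3, Il2, Il13 and Tgfb3 were lower. The list's median was -0.18 log2 there, and against Th0 it was -0.02 for Th22 and -0.11 for Th17. Between Th17 and Th0, 4 of the 25 were at least 2-fold higher in Th17 and 9 lower. That is 52% of the list, where 3.03% of all genes passed 2-fold. Il17f (76.0-fold) was the furthest of those higher and Il3 (47.1-fold) of those lower. After quantile normalization the differences of Il17f and Il13 between Th17 and Th22 came to 0.93 and -0.66 log2. A pair of probes shared by Il22 and Iltifb was highest in Th22, by 28.8-fold and 28.7-fold over Th0, and could not be assigned to a single gene.

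**Figure D3:**
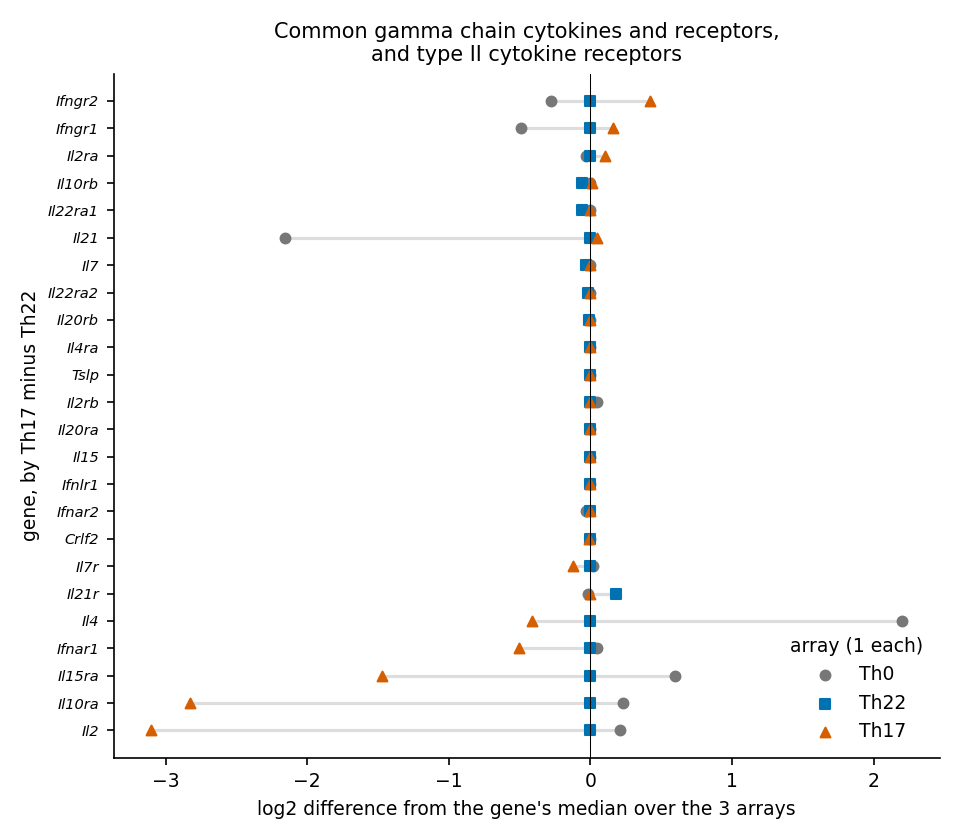
Values on the 3 arrays for 24 genes, namely the common gamma chain cytokines and receptors and the type II cytokine receptors, as log2 differences from each gene's median, ordered by Th17 minus Th22. Il10ra (-2.82 in Th17) and Il15ra (-1.47 in Th17) are the receptors set apart, beside the cytokines Il2 (-3.10 in Th17), Il4 (2.20 in Th0) and Il21 (-2.16 in Th0).

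The signalling genes downstream of both receptors were mostly level, as were most of all genes. Jak1, the kinase gene common to both, stood at 0 in Th0, -0.01 in Th22 and 0.11 in Th17, and Tyk2, which serves IL-10, at 0.00 in Th0, 0 in Th22 and -0.03 in Th17. Stat3 stood at -0.16 in Th0, 0 in Th22 and 0.19 in Th17, a step of 0.35 log2 between Th17 and Th0. Stat5a stood at -0.11, 0.14 and 0, and Stat5b at -0.29, 0 and 0.11, in the order Th0, Th22, Th17. A probe for Jak3, shared with Insl3, stood at -0.25, 0.01 and 0 in that order. Il2rg was not analysed here.

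Of 12 measured genes of IL-10 receptor signalling, 0 differed by 2-fold between Th17 and Th22 or between Th22 and Th0, where 2.61% and 0.808% of all genes did. Between Th17 and Th0, 2 were higher and 0 lower. Socs3, a feedback inhibitor induced by STAT3, was 2.13-fold higher by the mean of 2 probes that stood at 0.83 and 1.35 log2, and Sbno2, which encodes a transcriptional coregulator, was 2.42-fold higher. In Th22 they stood 0.79 and 0.80 log2 above Th0. The list's median was 0.06 log2 for Th17 against Th22, 0.13 for Th22 and 0.22 for Th17 against Th0, where all genes had 0. Of 10 genes of IL-9 receptor signalling, Socs2, another cytokine feedback inhibitor, was 2.85-fold higher in Th17 than in Th22 and 2.37-fold higher than in Th0, the latter falling to 0.83 log2 after quantile normalization and resting on 2 probes 0.49 log2 apart. Socs3 was the other gene of that list past 2-fold, and Cish and Irs1 were equal on all arrays.

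Of 27 transcription factor genes reported to act on Il10, 2 were at least 2-fold higher and 3 lower in Th17 than in Th22, with a median of 0. Maf, which encodes an activator of Il10 in several T helper subsets, stood at -0.72 in Th0, 0 in Th22 and 3.51 in Th17. It was 11.4-fold higher in Th17 than in Th22 and 18.7-fold higher than in Th0. Its order differed from that of Il10, since Th22 lay above Th0 for Maf and below it for Il10. Ahr, the ligand-activated partner of Maf in IL-10-producing cells, was 3.61-fold and 4.23-fold higher in Th17. The lower genes were Gata3 (6.27-fold), Tbx21 (6.30-fold) and Stat4 (2.04-fold), and Stat4 came to -0.63 log2 after quantile normalization.

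Prdm1, which encodes Blimp-1, another factor tied to Il10, stood at 0.48 in Th0, 0 in Th22 and -0.64 in Th17, so that Th17 lay 2.18-fold below Th0. That difference came to -0.99 log2 after scaling to equal SD. Batf, an AP-1 family gene, stood at 0.09, -0.01 and 0, and Irf4 at -0.06, 0 and 0.21, in the order Th0, Th22, Th17, all inside the probe disagreement. Between Th17 and Th0, Maf, Ahr and Smad3 (2.82-fold) were higher and 5 of the 27 were lower, namely Gata3 (a difference of -4.46 log2), Tbx21 (14.3-fold), Prdm1, Stat4 (2.17-fold) and Zbtb32 (2.08-fold). Stat4 and Zbtb32 came to -0.71 log2 after quantile normalization and -0.93 log2 after scaling to equal SD, respectively. Between Th22 and Th0 only Gata3 (3.50-fold) and Tbx21 (2.27-fold) differed, both lower in Th22.

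Of 28 measured factor genes reported to act on Il9, 2 were at least 2-fold higher and 3 lower in Th17 than in Th22, and 0 higher and 2 lower in Th22 than in Th0, with medians of 0 and 0.0024 log2. Gata3, an activator of Il9 in cells given IL-4 and TGFβ, stood at 1.81 in Th0, 0 in Th22 and -2.65 in Th17. It was thus lowest in Th17, where Il9 was within 2-fold of its Th0 value. Spi1, which encodes PU.1, and Erg were equal on all 3 arrays. Stat6, the IL-4 signal transducer gene, stood at 0 in Th0, 0.09 in Th22 and -0.14 in Th17. In Th17 against Th22, Foxp3 (12.6-fold) and Bcl6 (2.04-fold) were higher, and Gata3, Tbx21 and Id3 (3.35-fold) were lower. Bcl6 and Id3 are reported as repressors of Il9, and the difference of Bcl6 came to 0.68 log2 after quantile normalization. Foxp1, singled out after its values were seen, was within 2-fold in both comparisons as deposited (0.89 and -0.58 log2) and past it after quantile normalization (1.77 and -1.52), while Id3 passed 2-fold between Th22 and Th0 only when rescaled (1.28 log2 by quantile). Against Th0, Smad3, Foxp3 and Bcl6 were higher in Th17 and 4 of 28 were lower. Irf1 was 1 of those 4 (2.22-fold), but its 2 probes disagreed by 1.63 log2.

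**Figure D4:**
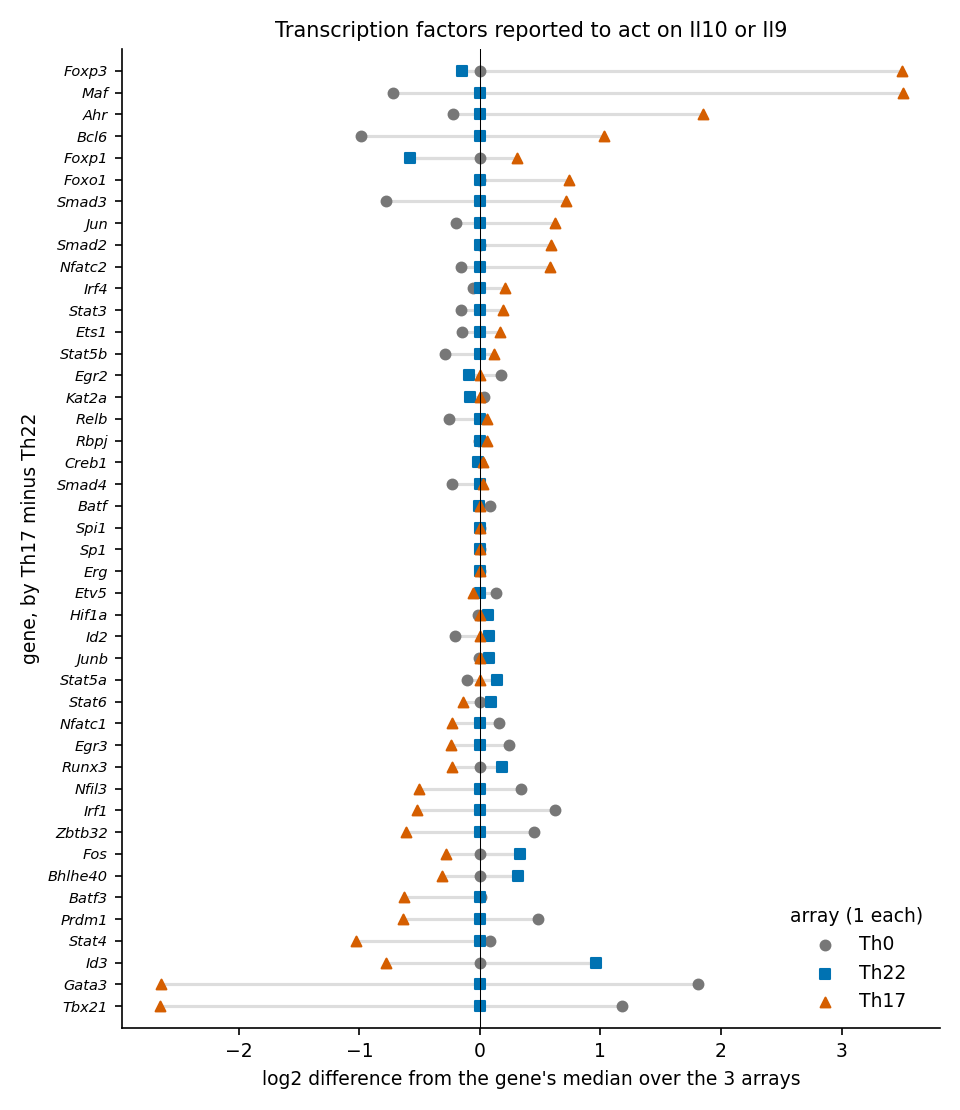
Values on the 3 arrays for 44 transcription factor genes reported to act on Il10 or Il9, as log2 differences from each gene's median, ordered by Th17 minus Th22. Foxp3 and Maf lie highest in Th17 (3.50 and 3.51) and Gata3 and Tbx21 lowest (-2.65 and -2.66), while Spi1 and Erg are equal on all arrays.

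Receptors for signals that induce Il9 or Il10, not all of them cytokines, were measured for 19 genes. Of these, 3 were at least 2-fold higher and 3 lower in Th17 than in Th22. Both TGFβ receptor chains were higher in Th17. Tgfbr1 stood at 0 in Th0, -0.49 in Th22 and 2.23 in Th17, which is 6.61-fold above Th22. Tgfbr2 was 2.15-fold above Th22, a difference that came to 0.98 log2 after quantile normalization. Il6st, the signalling chain of the IL-6 and IL-27 receptors, was 3.62-fold higher. Il23r (7.33-fold), Il12rb2 (5.88-fold) and Icos (2.11-fold) were lower, and Icos came to -0.86 log2 after quantile normalization. Between Th22 and Th0, Il23r passed 2-fold, being 26.8-fold higher in Th22. After quantile normalization Tgfbr1 and Notch2 did too, both lower in Th22 (-1.33 and -1.52 log2, from -0.49 and -0.70 as deposited). In Th17 against Th0, Tgfbr1, Il6st, Il23r and Il6ra (2.19-fold) were higher and Il12rb2 lower. The median of the 19 was 0 for Th17 against either array.

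Surface genes used to recognise IL-10-producing T cells differed both ways. Of 11 measured, Nt5e and Entpd1, which encode the ectoenzymes CD73 and CD39, were 24.3-fold and 3.76-fold higher in Th17 than in Th22. Cd226, an activating receptor gene, was 3.70-fold lower, Tigit, an inhibitory receptor gene, 3.16-fold lower, and Icos was lower as given above. The remaining 6 lay within 2-fold, and Itga2, which encodes CD49b, was equal on all arrays. The median was -0.12 log2 for Th17 against Th22. Against Th0 it was 0 for Th22, with none of the 11 past 2-fold, and -0.14 for Th17, with 2 higher (Nt5e and Entpd1) and 2 lower (Cd226 and Tigit).

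Markers of other cells that make IL-9 or IL-10 or carry their receptors were examined beside these results. Over all genes 37.7% were equal on all 3 arrays, the share against which the marker counts stand. Of 12 measured T cell markers none was equal on all arrays and only Trat1 passed 2-fold. None of 17 myeloid and dendritic cell markers passed 2-fold in any comparison, with 11 equal on all arrays and a largest difference of 0.64 log2. None of 11 mast cell and basophil markers did either, with 5 equal on all arrays and a largest difference of 0.85 log2. Of 11 B cell markers 8 were equal on all arrays and Ebf1 alone passed 2-fold, at 0 in Th0, 1.62 in Th22 and -1.05 in Th17. Of 8 CD8 and NK cell markers 3 were equal on all arrays and Cd8b1 was 2.20-fold lower in Th17 than in Th22, a difference that came to -0.69 log2 after quantile normalization. Eomes of that list passed 2-fold against Th0 only after quantile normalization (-1.08 log2 for both Th22 and Th17). Summed marker levels cannot be had from centred values. Ebf1, Cd8b1 and Trat1, the markers past 2-fold, were lowest on the same array as Il10ra. Signs within their lists varied with the list and the comparison. In Th17 against Th22, 2 T cell markers lay above 0 and 10 below, with a median of -0.28 log2. Against Th0 6 lay each way, with a median of -0.02. CD8 and NK cell markers of Th17 split 2 above and 2 below against Th22, and 1 above and 4 below against Th0. For B cell markers it was 1 and 1 against either array. For Cd8b1 the step from Th0 to Th17 came to -1.38 log2 as deposited and -0.97 after quantile normalization. The Ebf1 difference of Th17 from Th0 came to -0.65 log2 after quantile normalization. Any part of other cells in the Il10ra difference was not tested.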

How the data were processed

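RNA from mouse CD4 T cells, 3 samples in all, was hybridised to 3 biotin-labelled single-colour Affymetrix arrays, per the labels. Samples were grouped by their labelled T helper subset. The table the authors deposited holds 28853 probes with values assumed to be log2. The median over the 3 arrays was 0 for all 28853 probes, so the values are differences from each probe's own median. Background correction, normalization, log base and software were not given in the sources used here. Higher values were read as more RNA.

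Probes were named from the platform annotation, with symbols updated by Entrez identifier for 21698 of 21789 probes with 1 symbol. Another 1621 probes with several symbols and 5443 not listed were left out, and the probes of a gene were averaged, giving 19938 genes. No test was possible with 1 array in each group, so genes at least 2-fold apart were counted. The counting step was run on simulated noise with planted shifts larger than the threshold. This checks the calculation and not the calls made in these data. The members, gene lists and naming rule were chosen with earlier results of these data known. Named in full are the 5 members, a fixed set of signalling and factor genes, and the 5 genes nearest to each member with a range of at least 1 log2. List genes past 2-fold or equal on all arrays could be named, and not all were. Chromosomal neighbours were taken by position, outside that rule. Alternatives were another scaling, centring, probe rule, log base and threshold. Analyses used Python 3.11.15, numpy 2.4.6 and pandas 2.3.3.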

Additional observations from a re-analysis of the deposited data

How the results depend on the processing

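No paired analysis was possible because each group has 1 array, and no array could be left out for the same reason. All 6 differences of Il9, Il10 and Il10ra past 2-fold kept their direction and stayed past 2-fold under quantile normalization and under equal SD. The other alternatives could not end such a call. The members have 1 probe each, so the median over probes and the probes with several symbols leave them as they are, recentring moved nothing, and natural logs only enlarge each fold. Between the lowest and highest values over all of these, Il10 in Th17 against Th22 was 11.8-fold to 81.1-fold, Il10 against Th0 5.85-fold to 41.5-fold, Il10ra lower by 3.23-fold to 16.8-fold and 3.88-fold to 21.3-fold, and Il9 14.9-fold to 49.4-fold above Th22 and 10.5-fold to 35.4-fold lower in Th22 than in Th0. Natural logs gave the upper ends for all but Il9 in Th22 against Th0, where equal SD did. The count of members past 2-fold changed in Th22 against Th0 alone, from 1 to 2 with quantile normalization, equal SD or a 1.5-fold threshold, as Il10 joined Il9. The scalings make the spread of the arrays equal, and the Th22 array had the narrowest (SD 0.125 log2, against 0.166 for Th0 and 0.277 for Th17). The number of all genes past the threshold was 520 for Th17 against Th22, 161 for Th22 and 604 for Th17 against Th0. In that order it was 859, 343 and 1021 with natural logs, 1093, 480 and 1260 at 1.5-fold, and 244, 59 and 290 at 3-fold. For Th22 against Th0 it was 308 with quantile normalization and 272 with equal SD. Without levels, a value may stand at the lower end of what the array measures, and each fold against it would then be too small. This was not tested.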

Other observations

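The genes beside each of the 5 on its chromosome were read in the order of the RefSeq gene table, 3 measured protein-coding genes on each side. They were chosen by position, after the values of the 5 genes were known. Over all genes, 2.61% passed 2-fold between Th17 and Th22, 0.808% between Th22 and Th0 and 3.03% between Th17 and Th0. All 3 arrays were equal for 37.7%. A set of 6 neighbours with few or none past 2-fold is therefore not set apart by that. Il10 lies in a cluster of its own relatives. Of its 6 neighbours only Il24 passed 2-fold, standing at 0.81 in Th0, 0 in Th22 and -0.30 in Th17. It was highest in Th0, and its difference of -0.30 log2 between Th17 and Th22 lay inside the probe disagreement of 0.36. Il20 and Il19, which lie between Il24 and Il10, were equal on all arrays, and Mapkapk2, a kinase gene on the other side, was 1.08-fold higher in Th17 than in Th0. Of the 6 neighbours of Il9, 5 were equal on all arrays and the largest difference was 0.12 log2, in Tgfbi, a TGFβ-induced matrix protein gene. The 6 neighbours of Il10ra differed by at most 0.13 log2.

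Il10rb lies among interferon receptor genes. Ifnar2, on one side, stood at -0.03 in Th0 and 0 in both other arrays. Ifnar1, on the other side, stood at 0.05 in Th0, 0 in Th22 and -0.51 in Th17, and Ifngr2 at -0.28, 0 and 0.42 in the same order. None of the 6 neighbours of Il10rb passed 2-fold. None of those of Il9r did either, the largest difference being 0.91 log2 in Snrnp25, a splicing factor gene, which was lower in Th17 than in Th22.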
